A study of Mus musculus with 12 samples.

Results

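The chaperones of the endoplasmic reticulum (ER) that take part in the unfolded protein response were followed in mouse liver as 10 genes, Hspa5, Hsp90b1, Hyou1, Pdia4, Pdia6, Calr, Dnajb9, Sdf2l1, Manf and Xbp1. The members were taken by name, with no cut on their levels, but with earlier results of these data known. The values of all transcripts that carry a member's gene name in the deposited table were added up in each liver. Of the 10 genes, 9 had transcripts under their own name, among 22170 gene names in the table. The transcripts of Manf were listed under the neighbouring gene Rbm15b. The Manf value is thus the sum over 10 transcripts that were assigned to Manf through the GENCODE M21 annotation. They include assembled transcripts, which were assigned by the annotated transcript in their name. The largest of these had a mean of 21.2 FPKM, within a Manf mean of 73.4 FPKM. Levels are in FPKM, fragment counts divided by transcript length and by library size, so levels of different genes are compared per length.

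RNA from 12 livers was sequenced, 3 from each of 4 diets. All mice were males of the inbred strain C57BL/6J, 21 weeks old after 16 weeks on the diet, and were fasted before the liver was taken. The ND group received a normal diet and the HFD group a high-fat diet. The CLE group received the same high-fat diet with 1.5% (w/w) of an ethanol extract of Chrysanthemum morifolium Ramat leaves, and the LU group the high-fat diet with 0.003% (w/w) luteolin, a plant flavone. ND alone was not given the high-fat diet. The sequenced mice were chosen by the study as representative of larger groups, and each liver is a separate mouse.

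Secreted and membrane proteins are folded in the ER, and hepatocytes, which make most plasma proteins, hold much of it. When unfolded proteins build up there, the sensors Ire1, Perk and Atf6 leave the chaperone BiP, the product of Hspa5, and start the unfolded protein response. Atf6 and the spliced form of Xbp1 then raise the transcription of chaperones, disulfide isomerases and their helpers, while Perk acts through the factor Atf4. In liver the response is known to follow feeding, the time of day and lipid load. Spliced and unspliced Xbp1 are not separated by these values.

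The 10 genes did not differ significantly between the diets, and they varied strongly, and mostly together, between mice of the same diet. No member passed an adjusted p of 0.05 in limma in any of 6 comparisons of 2 diets. ND had the lowest mean for 9 of the 10 genes, all except Xbp1, and the highest mean was in HFD for 3 genes, CLE for 3 and LU for 4. After median-of-ratios scaling of the libraries ND was lowest for 6 genes, CLE for 3 (Hspa5, Hsp90b1 and Dnajb9) and HFD for 1, so this order depends on the scaling. It also depends on the transcripts that are added up. HFD had the highest mean for Hspa5 and Pdia6. With only the transcript of the highest mean, LU exceeded HFD for both (log2 fold changes 0.12 and 0.27). Hspa5 reached 459 FPKM in mouse CLE 11 and 136 FPKM in mouse CLE 4, which ate the same diet, a 3.38-fold range. In whole liver, a change in the number of cells of a type and a change in RNA per cell cannot be told apart.

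The promoters are shown because the members moved together from mouse to mouse. Windows of 250 bases before the annotated start were taken from RefSeq on build GRCm38.p6 for the 8 members that matched, all except Hyou1 and Manf. They were searched on both strands for the ER stress response element (ERSE), spelled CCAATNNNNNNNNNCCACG, which NF-Y and Atf6 are known to bind. It was present in 4 of the 8 windows, those of Hspa5, Hsp90b1, Pdia6 and Calr, and in 37 of all 32851 promoter windows of the same length (0.113%). The windows are printed on the strand of the gene, with the outer letters of each element in capitals.
Hspa5, chr2:34771840-34772089, plus strand: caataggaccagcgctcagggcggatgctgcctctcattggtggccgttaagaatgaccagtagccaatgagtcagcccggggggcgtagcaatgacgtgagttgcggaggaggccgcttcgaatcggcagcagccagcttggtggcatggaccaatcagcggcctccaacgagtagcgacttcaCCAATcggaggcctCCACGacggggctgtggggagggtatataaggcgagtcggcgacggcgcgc
Hsp90b1, chr10:86705445-86705694, minus strand: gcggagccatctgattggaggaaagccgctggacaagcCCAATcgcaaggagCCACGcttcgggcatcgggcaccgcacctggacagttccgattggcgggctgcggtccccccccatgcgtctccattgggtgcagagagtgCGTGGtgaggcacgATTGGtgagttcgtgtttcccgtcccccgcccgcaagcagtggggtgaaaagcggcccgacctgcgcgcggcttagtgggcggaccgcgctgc
Pdia6, chr12:17266339-17266588, plus strand: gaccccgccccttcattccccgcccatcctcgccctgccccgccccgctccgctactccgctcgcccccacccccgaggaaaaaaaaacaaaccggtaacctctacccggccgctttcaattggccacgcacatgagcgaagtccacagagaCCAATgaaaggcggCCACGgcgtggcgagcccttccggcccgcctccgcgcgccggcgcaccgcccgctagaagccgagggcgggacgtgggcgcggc
Calr, chr8:84846932-84847181, minus strand: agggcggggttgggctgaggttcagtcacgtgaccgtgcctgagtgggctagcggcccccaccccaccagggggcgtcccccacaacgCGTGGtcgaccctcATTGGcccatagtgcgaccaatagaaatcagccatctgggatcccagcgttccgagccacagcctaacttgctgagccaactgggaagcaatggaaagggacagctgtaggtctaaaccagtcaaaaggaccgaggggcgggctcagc

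The element lay 65 to 47 bases before the RefSeq start of Hspa5 and 98 to 80 bases before that of Pdia6. RefSeq starts can differ from the GENCODE gene spans given below. The Hspa5 window ends at 34772089, past the start of that gene span (34771970), so its element lies within the span. Hsp90b1 held it at 212 to 194 bases on the strand of the gene and at 107 to 89 bases on the other strand, and Calr at 162 to 144 bases on the other strand. Pdia4 matched when the last letter was left free (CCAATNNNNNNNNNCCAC, 105 of 32851 windows, 0.32%), a variant chosen after the matches were seen, which includes all matches of the full element. The related elements ATTGGNCCACG (ERSE-II, 0.0304% of windows) and TGACGTGG (UPRE, 0.563% of windows) were found in 0 of the 8 windows. The elements were searched for because they are known for this response, so the count in the members is not an independent test. A match is a description of these letters and does not show binding. Its part in the shared movement of the members was not tested.

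Hspa5 (ENSMUSG00000026864, chr2:34771970-34777547, GRCm38) encodes BiP, the main Hsp70-type chaperone of the ER. It stood at 357, 257 and 166 FPKM in ND mice 2, 3 and 4 and at 369, 319 and 209.6 FPKM in HFD mice 12, 15 and 18. In CLE mice 2, 4 and 11 it stood at 246, 136 and 459 FPKM, and in LU mice 2, 3 and 8 at 207, 409.9 and 233 FPKM. The lowest and the highest liver of all 12 were thus both from the CLE diet, and all groups overlapped. The group means were 259.9 ± 95.6 FPKM in ND, 299 ± 81.3 in HFD, 280.1 ± 164 in CLE and 283 ± 110.3 in LU (SD, n = 3). HFD differed from ND by 0.23 ± 0.41 on the log2 scale (SE, adjusted p = 0.768), with a 95% interval from -36.2% to 116%, and a change within those bounds could not be told from no change.

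Hsp90b1 (ENSMUSG00000020048, chr10:86690209-86705509) encodes Grp94, the Hsp90 of the ER. Its levels were 301, 253 and 221 FPKM in the ND mice, 314, 267 and 220.3 in HFD, 245, 193 and 343 in CLE and 230.0, 364 and 254 in LU, in the same order of mice. It was the member with the narrowest range, 1.89-fold from the lowest liver (CLE 4) to the highest (LU 3), and HFD differed from ND by 0.05 ± 0.22 on the log2 scale (adjusted p = 0.924). Hyou1 (ENSMUSG00000032115, chr9:44379490-44392369) encodes Grp170, a large Hsp70 relative that serves as a nucleotide exchange factor for BiP. It stood at 29.3, 23.5 and 14.1 FPKM in ND, 31.6, 30.0 and 19.7 in HFD, 23.8, 15.1 and 47.8 in CLE and 19.5, 37.5 and 21.9 in LU. Within each diet the order of the mice was that seen for Hspa5, with CLE 11 the highest of all livers and ND 4 the lowest.

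Against HFD, neither diet with a supplement moved the 3 large chaperones by more than their errors. In CLE the log2 fold changes were -0.23 ± 0.41 for Hspa5, -0.06 ± 0.22 for Hsp90b1 and -0.04 ± 0.37 for Hyou1, with adjusted p from 0.734 to 0.960. In LU they were -0.11 ± 0.41, 0.07 ± 0.22 and -0.07 ± 0.37. Both comparisons use the same 3 HFD livers, so they are not independent of each other.

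Calr (ENSMUSG00000003814, chr8:84841850-84846934) encodes calreticulin, a lectin chaperone that binds glycoproteins and stores calcium. It stood at 208, 170.3 and 137 FPKM in ND, 308, 209 and 202 in HFD, 248.5, 194 and 385 in CLE and 208, 305 and 269.6 in LU. The 3 LU livers were all above the 3 ND livers, by a margin of 208.3 against 208.1 FPKM at the nearest pair, while HFD and CLE overlapped ND. Calr was 0.64 ± 0.25 higher on the log2 scale in CLE than in ND (adjusted p = 0.0695) and 0.60 ± 0.25 higher in LU than in ND (adjusted p = 0.109), and neither passed. Without CLE 4 the CLE value was 0.87 and passed (adjusted p = 0.0406). HFD against ND gave 0.47 ± 0.25 (adjusted p = 0.247). Of the 10 members, Calr had the largest share of its variance between the diets, 42.6%, where the median of all genes tested was 52.7%.

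Pdia4 and Pdia6 encode disulfide isomerases, which form and shuffle disulfide bonds. Pdia4 (ENSMUSG00000025823, chr6:47796141-47813430) stood at 73.1, 65.3 and 52.2 FPKM in ND, 96.2, 77.1 and 71.6 in HFD, 78.7, 43.3 and 104 in CLE and 66.9, 105 and 77.0 in LU. Pdia6 (ENSMUSG00000020571, chr12:17266545-17284770) stood at 72.3, 67.6 and 46.9 FPKM in ND, 127, 95.1 and 72.8 in HFD, 70.5, 49.3 and 117 in CLE and 70.4, 108 and 85.8 in LU. All 3 HFD livers held more Pdia6 than any ND liver, although HFD 18 and ND 2 lay close together. Pdia6 was 0.64 ± 0.29 higher in HFD than in ND on the log2 scale, a 1.56-fold difference of the fitted means, with an adjusted p of 0.174. Pdia4 was 0.36 ± 0.27 higher (adjusted p = 0.420). Against HFD, Pdia6 differed by -0.37 ± 0.29 in CLE (adjusted p = 0.413) and by -0.14 ± 0.29 in LU (adjusted p = 0.807).

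Dnajb9, Sdf2l1 and Manf act as helpers. Dnajb9 (ENSMUSG00000014905, chr12:44205559-44210326) encodes ERdj4, a J-domain cochaperone of BiP, and stood at 37.5, 31.1 and 28.9 FPKM in ND, 52.4, 42.2 and 33.7 in HFD, 31.0, 21.1 and 47.5 in CLE and 26.0, 41.1 and 33.5 in LU. None of the LU livers exceeded the HFD median, and the difference of LU from HFD was -0.34 ± 0.25 on the log2 scale (adjusted p = 0.454). CLE against HFD gave -0.41 ± 0.25, the smallest adjusted p of that comparison among the members (0.295).

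Sdf2l1 (ENSMUSG00000022769, chr16:17130138-17132383) encodes a small ER protein found in complexes of BiP with J-domain proteins, and it is a known feeding-responsive gene of liver. It was the lowest and the most variable member, at 4.15, 3.61 and 1.54 FPKM in ND, 9.44, 6.76 and 4.70 in HFD, 5.89, 4.12 and 24.6 in CLE and 5.72, 18.1 and 6.67 in LU. The HFD and LU livers were all above the ND livers, and CLE 4 alone of the livers on high-fat diets lay within the ND range. The range over the 12 livers was 15.9-fold, and within CLE it was 5.96-fold. On the log2 scale Sdf2l1 was 0.98 ± 0.54 higher in HFD than in ND (adjusted p = 0.264), 1.30 ± 0.54 higher in CLE (adjusted p = 0.0839) and 1.34 ± 0.54 higher in LU (adjusted p = 0.0997), and none of these passed. Without CLE 11, whose distance from the other CLE mice enters the shared estimate of the spread, the LU value was still 1.34 and passed (adjusted p = 0.0392).

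Manf (ENSMUSG00000032575, chr9:106838312-106891979) encodes a secreted factor that is kept in the ER by BiP. Its annotation sum was 78.9, 46.5 and 29.5 FPKM in ND, 108.0, 74.7 and 49.1 in HFD, 57.7, 41.1 and 140.5 in CLE and 60.0, 134.8 and 60.1 in LU. CLE 11 and LU 3 stood far above the other mice of their diets. The differences from ND were 0.61 ± 0.47 in HFD, 0.53 ± 0.47 in CLE and 0.71 ± 0.47 in LU on the log2 scale, with adjusted p of 0.446, 0.405 and 0.299 in the fit on annotation sums.

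Xbp1 (ENSMUSG00000020484, chr11:5520659-5525893), is the transcription factor gene whose mRNA Ire1 splices. It stood at 88.2, 143 and 66.2 FPKM in ND, 86.3, 78.4 and 101 in HFD, 110.2, 89.3 and 133 in CLE and 118, 196 and 106 in LU. The HFD group had the lowest mean, 88.5 ± 11.3 FPKM, and all 3 LU livers were above all 3 HFD livers. LU exceeded HFD by 0.61 ± 0.27 on the log2 scale, a 1.52-fold difference, with an adjusted p of 0.235. CLE exceeded HFD by 0.31 ± 0.27 (adjusted p = 0.463), and HFD differed from ND by -0.10 ± 0.27 (adjusted p = 0.860).

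**Figure D1:**
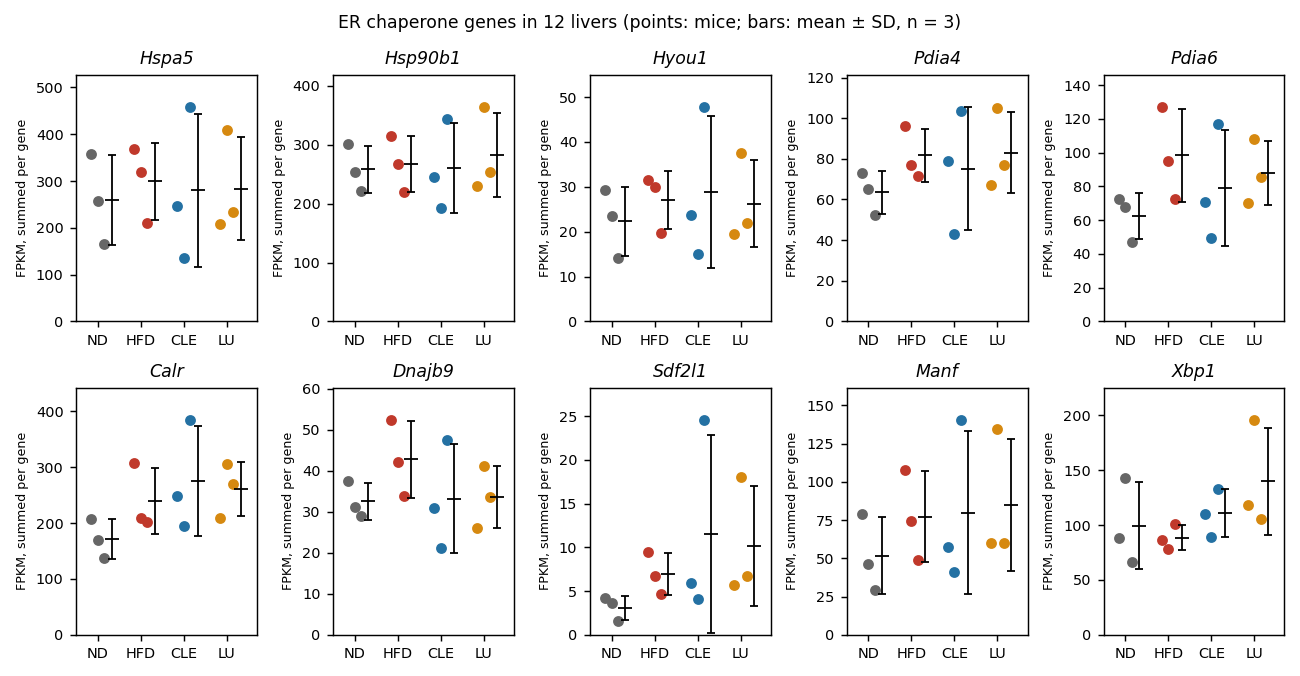
Summed FPKM of each gene (y axis, from 0) in the 12 livers by diet (x axis). Points are mice, in order of their number, and black bars are mean ± SD of 3 mice. CLE 11 (the rightmost CLE point) and LU 3 (the middle LU point) were among the 3 highest livers for 10 and 9 genes.

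Counted over the members, 0 of the 9 genes with their own name were called higher or lower in HFD against ND, where 12.1% of the 11566 genes tested were called. The count was also 0 in CLE against HFD (6.03% of all genes), LU against HFD (1.03%), CLE against LU (0.00865%), CLE against ND (27%) and LU against ND (14.9%). Manf was not called in the fit on annotation sums, in which the shares of all genes in the same order were 11.6%, 5.7%, 1%, 0.00836%, 26.7% and 14.6%. An unadjusted p under 0.05 was reached by Pdia6 in HFD against ND (27.2% of all genes), by Xbp1 in LU against HFD (20.3%), and by Calr and Sdf2l1 in both CLE against ND (42.9%) and LU against ND (34.3%). It was reached by no member in CLE against HFD (29.5%) or CLE against LU (4.39%). These shares of the members, from 0 to 2 of 9, were below those of all genes.

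The groups did not overlap for Pdia6 and Sdf2l1 in HFD against ND, a pattern that 29.1% of all genes showed in the same direction. The same held for Xbp1 in LU against HFD (13.1%) and for Calr and Sdf2l1 in LU against ND (29.4%). With 1 or 2 of 9 genes, the members again did not exceed the share of all genes. The median log2 fold change of the 9 genes was 0.36 in HFD against ND, with 8 of 9 positive, beside 0.11 for all genes. It was -0.06 in CLE against HFD (all genes 0.02), 0.01 in LU against HFD (all genes -0.02) and -0.12 in CLE against LU (all genes 0.03). Against ND it was 0.21 in CLE (all genes 0.16) and 0.37 in LU (all genes 0.12). Median-of-ratios scaling of the libraries moved the median of all genes in HFD against ND from 0.11 to -0.01, and the split of called genes from 1156 higher and 244 lower to 619 higher and 505 lower. The median of the 9 genes was then 0.20, with 7 of 9 positive, and Hsp90b1 turned negative. Against ND it was then 0.039 in CLE, with 5 of 9 positive (7 of 9 as deposited), and 0.24 in LU, with 6 of 9 positive (9 of 9 as deposited).

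**Figure D2:**
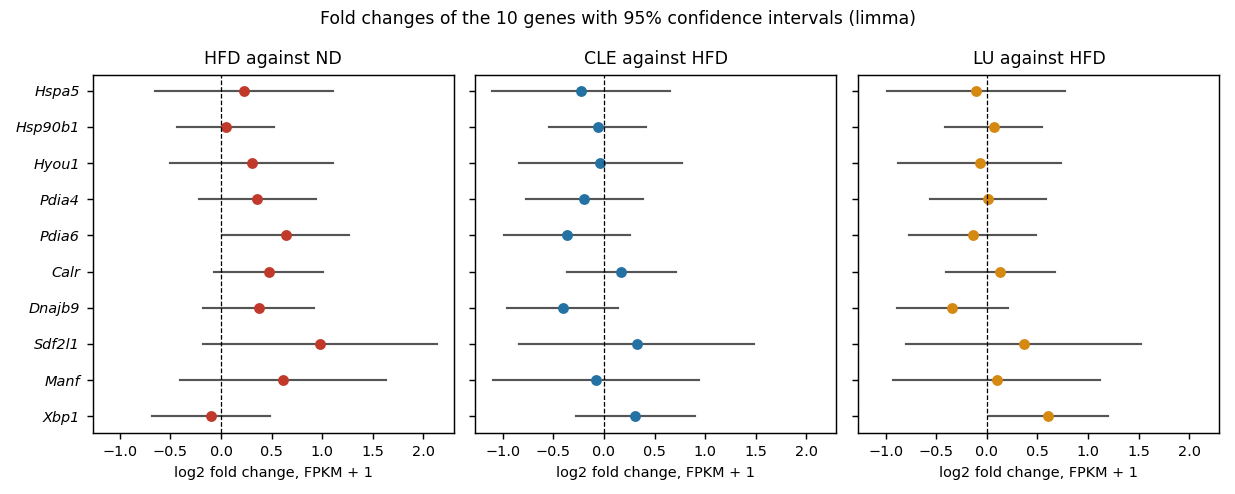
Log2 fold change of FPKM + 1 (x axis) of each gene (y axis) in 3 comparisons of diets, with 95% confidence intervals from limma as lines. The intervals of Pdia6 in HFD against ND and of Xbp1 in LU against HFD leave out 0, and neither gene passed the adjusted p of 0.05.

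Over all 4 diets, the moderated F test of limma called 0 of the 10 genes, where 24.4% of all genes were called, and none had an unadjusted p under 0.05, which 42.5% of all genes had. A permutation test of F, exact because it enumerated all 15400 ways to assign the mice to diets, gave p from 0.205 for Calr to 0.958 for Hspa5. The diets held 3.50% of the variance of Hspa5, 3.56% of that of Hsp90b1 and 6.13% of that of Hyou1. With 4 groups of 3 mice, 27.3% is the share expected from the number of groups alone.

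Mice of the same diet differed more in these genes than in most others. The pooled within-group SD on the log2 scale was 0.32 for Hsp90b1, the lowest of the members, and 0.82 for Sdf2l1, the highest. The median of the 10 genes was 0.416 and that of all genes tested was 0.176. All 10 lay at or above the percentile 91.3 of all genes, and Hspa5, Hyou1, Manf and Sdf2l1 lay at or above percentile 98.5. Pdia4, Calr and Dnajb9 lay between percentiles 94.3 and 95.6. The percentiles were not matched for level, and the scale of log2(FPKM + 1) understates the spread of low genes.

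**Figure D3:**
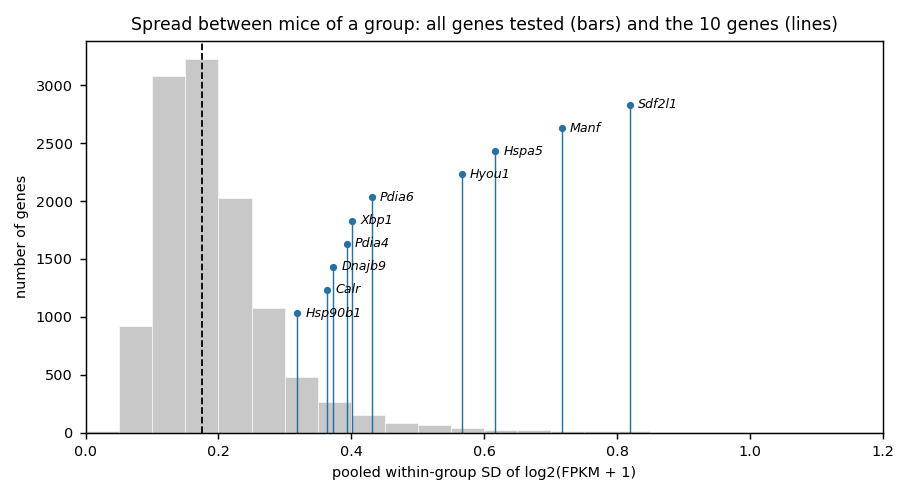
Number of genes (y axis) by pooled within-group SD of log2(FPKM + 1) (x axis, in steps of 0.05) for the 11566 genes tested, with the 10 members as blue lines whose heights have no meaning. The dashed line is the median of all genes, 0.176, and every member lies to its right.

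The same mice were high or low for gene after gene. CLE 11 was among the 3 highest livers for all 10 genes and the highest for 5, HFD 12 and LU 3 were among the 3 highest for 9 each, and no other mouse was among them for more than 1. At the other end, ND 4 was among the 3 lowest for all 10 genes and the lowest for 6, and CLE 4 was among the 3 lowest for 9 and the lowest for 4. On a score that averages the standardised log2 values of the 10 genes, the mice ranged from -1.41 (ND 4) and -1.28 (CLE 4) to 1.33 (LU 3) and 1.48 (CLE 11). Each diet thus held a mouse with a positive score and a mouse with a negative score.

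**Figure D4:**
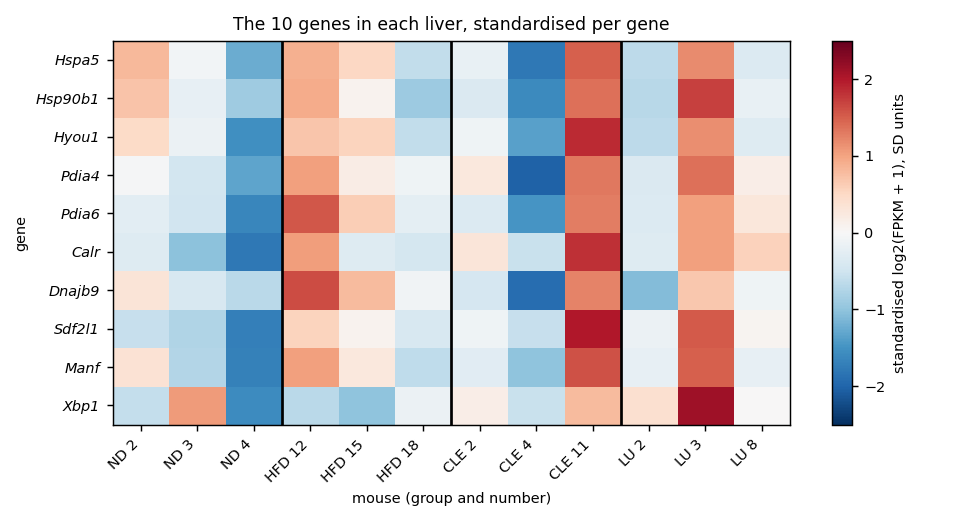
Standardised log2(FPKM + 1) of each gene (rows) in each liver (columns, grouped by diet), in SD units around the mean of the 12 livers, red high and blue low. The columns of CLE 11 and LU 3 are mostly red and those of ND 4 and CLE 4 mostly blue, and HFD 12 is red in 9 rows and blue for Xbp1.

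Over the 12 livers, Pearson's r with Hspa5 on the log2 scale was 0.97 for Hyou1 (Spearman's rho 0.98), 0.96 for Hsp90b1 (0.95), 0.92 for Manf (0.89), 0.91 for Pdia4 (0.85), 0.90 for Dnajb9 (0.88) and 0.88 for Pdia6 (0.81). It was lower for Sdf2l1, at 0.77 (0.73), and for Calr, at 0.73 (0.73). Xbp1 followed Hspa5 least, with r = 0.43 (0.31). The points share their libraries, and the values are given as a description with no test. The median r of all other genes with Hspa5 was -0.01, and 0.0432% of the 11565 had r above 0.9. These 11565 genes include the other members with their own name. Hyou1, Hsp90b1, Pdia4 and Dnajb9 are among those above 0.9, so this share is not a background without the members.

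The values stayed positive without the extreme mice and within the diets. Without the 2 livers farthest from the Hspa5 median, CLE 4 and CLE 11, r over the remaining 10 was 0.98 for Hyou1, 0.94 for Hsp90b1, 0.92 for Manf, 0.83 for Pdia4, 0.82 for Dnajb9, 0.81 for Pdia6, 0.74 for Sdf2l1, 0.68 for Calr and 0.34 for Xbp1. When each gene was taken as its deviation from the mean of its diet, r with Hspa5 was between 0.92 (Calr) and 0.99 (Hyou1) for 8 genes and 0.56 for Xbp1. Among the 36 pairs that can be formed without Xbp1, r of these deviations was between 0.89 and 0.99, and among the 9 pairs with Xbp1 it was between 0.42 and 0.65.

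**Figure D5:**
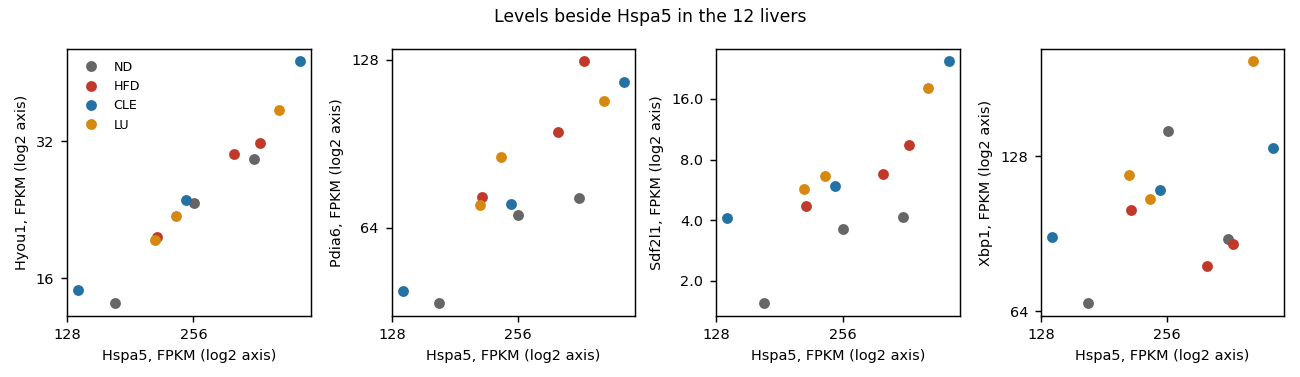
FPKM of Hyou1, Pdia6, Sdf2l1 and Xbp1 (y axes) against FPKM of Hspa5 (x axes) in the 12 livers, on log2 axes, coloured by diet. Hyou1 lies near a line (r = 0.97), Pdia6 (0.88) and Sdf2l1 (0.77) spread more, and Xbp1 is scattered (r = 0.43).

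The 5 non-member gene names most like the mean of the members over the 12 livers were Rbm15b (r = 0.97), Pdia3 (0.94), Creld2 (0.94), Dnajb11 (0.88) and Syvn1 (0.88), of 11557 ranked. The Rbm15b row is the merged locus that holds the Manf transcripts, so it is not a separate gene here. Pdia3 encodes ERp57, a disulfide isomerase that works with calreticulin, and ranged from 75.0 to 169.9 FPKM. Creld2 and Dnajb11 encode ER proteins, the latter a BiP cochaperone, and ranged from 9.81 to 49.2 and from 20.4 to 49.6 FPKM. Syvn1 encodes Hrd1, the ubiquitin ligase of ER-associated degradation, and ranged from 21.4 to 77.7 FPKM. The full ERSE was found in 2 of the 5 promoter windows of these names, those of Creld2 and Syvn1 (0.113% of all windows). With the last letter free it was found in 3 of the 5, also in that of Pdia3 (0.32% of all windows).

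Other genes of the response were taken from lists by role. None of the 6 sensors and activators (Atf6, Atf6b, Ern1, Eif2ak3 and the proteases Mbtps1 and Mbtps2) was called in HFD against ND, CLE against HFD or LU against HFD. The shares of all genes called in these comparisons were 12.1%, 6.03% and 1.03%. Atf6 stood at 15.1 ± 1.72 FPKM in HFD, 11.1 ± 2.26 in CLE and 11.2 ± 0.740 in LU (SD, n = 3). Its log2 fold change was -0.42 ± 0.14 in CLE against HFD (adjusted p = 0.0806) and -0.39 ± 0.14 in LU against HFD (adjusted p = 0.161). Mbtps2, which encodes the protease that frees Atf6, gave -0.32 ± 0.11 in both (adjusted p = 0.0906 and 0.151). Under quantile normalization Mbtps2 was called lower in CLE against HFD. Against ND, where 27% of all genes were called in CLE and 14.9% in LU, 1 of the 6 rose and 2 fell in both diets. These are named after their values were seen. Ern1, which encodes Ire1, fell from 15.9 ± 3.41 FPKM in ND to 8.03 ± 1.21 in CLE (-0.90 ± 0.19, adjusted p = 0.0082) and 8.35 ± 1.89 in LU (-0.86 ± 0.19, adjusted p = 0.0153). Mbtps2 fell by 0.37 in CLE (adjusted p = 0.0284) and by 0.38 in LU (adjusted p = 0.0409), and Mbtps1 was 0.32 higher in CLE (adjusted p = 0.0378) and 0.33 higher in LU (adjusted p = 0.0499). The calls of Ern1 and Mbtps2 were kept under median-of-ratios scaling and quantile normalization, and that of Mbtps1 was lost under both. Atf6 also fell in CLE against ND under median-of-ratios scaling. The r of the 6 genes with Hspa5 was between -0.10 and 0.56.

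Of 21 further folding genes tested, 1 rose and 1 fell in HFD against ND (12.1% of all genes were called), 1 fell in CLE against HFD (6.03%) and none was called in LU against HFD (1.03%). Ppib, the ER cyclophilin B, rose from 71.0 ± 3.71 FPKM in ND to 98.7 ± 14.4 in HFD, by 0.46 ± 0.13 on the log2 scale (adjusted p = 0.0336). Pdia5, another disulfide isomerase, fell from 28.9 ± 3.10 to 16.8 ± 0.844 FPKM (-0.74 ± 0.18, adjusted p = 0.0182). Dnajc3, which encodes a BiP cochaperone that also restrains Perk, stood at 52.6 ± 7.60 FPKM in HFD and fell to 33.5 ± 9.05 in CLE (-0.66 ± 0.18, adjusted p = 0.0483). The call of Dnajc3 held in 4 of 13 alternative settings and in 1 of 12 fits that left out a mouse. The calls of Pdia5 and Ppib held in 10 and 6 of the 13 settings and in 8 and 7 of the 12 fits. Pdia5 was lost without ND 4 or any 1 of the HFD mice, and its log2 fold change stayed between -0.89 and -0.57 in all these settings and fits. Against ND, 3 rose in CLE (Erp29, Ppib and Txndc5) and 1 fell (Dnajc3), where 27% of all genes were called, and 2 rose in LU (Erp29 and Ppib), where 14.9% were called. Of these, Erp29 in both diets and Dnajc3 in CLE were also called under median-of-ratios scaling, and Ppib and Txndc5 were not. Under that scaling 1 rose and 3 fell in CLE (Dnajc3, Ero1l and Pdia5 fell), and 1 rose and 2 fell in LU (Dnajc3 and Ero1l fell). The balance of rises and falls against ND thus depends on the scaling.

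Of the 14 genes of ER-associated degradation, none was called in HFD against ND (12.1% of all genes) or LU against HFD (1.03%). In CLE against HFD (6.03%) 1 was called, Edem1, a lectin that directs misfolded glycoproteins to degradation. It fell from 38.7 ± 4.47 FPKM in HFD to 24.8 ± 4.71 in CLE (-0.63 ± 0.14, adjusted p = 0.0316) and was at 30.5 ± 1.63 in ND. The call held in 10 of 13 settings and in 8 of 12 fits without a mouse, was lost without CLE 4 or any 1 of the HFD mice, and its value stayed between -0.77 and -0.48. Os9, another lectin of this route, stood at 179 ± 12.2 FPKM in HFD and 119.6 ± 33.4 in CLE (-0.62 ± 0.18, adjusted p = 0.0569). Against ND, Selk rose and Edem3 and Os9 fell in CLE (27% of all genes were called), and Selk rose and Edem3 fell in LU (14.9%). Under median-of-ratios scaling the call of Selk in LU was lost, Edem1 and Sel1l also fell in CLE, and Os9 also fell in LU. Sel1l then fell in CLE against HFD as well. Of 19 genes of translocation and transport, 1 rose in HFD against ND (12.1% of all genes were called) and 1 in CLE against HFD (6.03%). Sec11c, a signal peptidase subunit, rose from 14.5 ± 1.67 FPKM in ND to 20.8 ± 3.21 in HFD (0.49 ± 0.14, adjusted p = 0.0338), a call that held in 5 of 13 settings and 8 of 12 fits. Sec31a, a coat protein of vesicles that leave the ER, rose from 38.2 ± 3.22 FPKM in HFD to 55.2 ± 9.05 in CLE (0.51 ± 0.13, adjusted p = 0.0406), a call that held in 8 of 13 settings and 4 of 12 fits. Its transcript with the highest mean gave -0.37 instead. Against ND, 3 of the 19 rose in CLE (Sec11c, Sec24d and Sec31a), where 27% of all genes were called, and 2 in LU (Sec11c and Sec31a), where 14.9% were called. Of these, only Sec31a was called under median-of-ratios scaling in either diet.

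Among the genes downstream of Perk and Atf4, of 11 tested, 4 rose in HFD against ND, where 9.99% of all genes rose, 6 rose in CLE against ND (20.9%) and 4 in LU against ND (11.2%), and none fell. Under median-of-ratios scaling 3, 4 and 4 rose, and under quantile normalization 2, 2 and 1. Vldlr, a lipoprotein receptor, rose from 0.651 ± 0.102 FPKM in ND to 3.85 ± 0.770 in HFD (1.55 ± 0.23 on the log2 scale, adjusted p = 0.00102). Ddit3, which encodes the factor Chop, rose from 6.53 ± 1.88 to 17.5 ± 6.59 FPKM (1.26 ± 0.24, adjusted p = 0.0058). Sesn2, a stress-inducible regulator of growth signalling, rose from 1.57 ± 0.308 to 3.44 ± 0.774 FPKM (0.78 ± 0.18, adjusted p = 0.0165). Trib3, a pseudokinase, rose from 2.18 ± 0.712 to 4.26 ± 1.13 FPKM (0.73 ± 0.20, adjusted p = 0.0354). The Vldlr call held in all 12 alternative settings that gave it a value and in all 12 fits without a mouse. The Ddit3 call held in 12 of 13 settings, all except the clock-gene covariate, under which its log2 fold change was 1.39 ± 0.34 (adjusted p = 0.0521). Those of Sesn2 and Trib3 held in 9 and 4 of 12 settings, and Sesn2 was lost without ND 3, HFD 12 or HFD 18, where it kept a log2 fold change of at least 0.58.

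None of the 11 was called in CLE against HFD (6.03% of all genes) or in LU against HFD (1.03%), but Vldlr fell in CLE against HFD under median-of-ratios scaling and quantile normalization. The r of these genes with Hspa5 was between -0.40 and 0.46, and none of the 11 exceeded 0.7, which 0.527% of all genes, members included, did. Of the folding genes 6 of 21 exceeded it (Canx, Creld2, Dnajb11, Ero1lb, Pdia3 and Txndc11), of the degradation genes 2 of 14 (Derl2 and Syvn1) and of the translocation genes 2 of 19 (Sec61a1 and Spcs2).

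Other measures that differed between the livers are given beside these results. A score of 14 clock genes was between 0.35 and 3.21 in ND, -0.75 and 0.92 in HFD, -1.52 and -0.32 in CLE and -1.74 and -0.50 in LU, so CLE and LU did not overlap ND. Dbp, an output gene of the clock, was at 3.01, 21.4 and 2.06 FPKM in the ND mice and between 26.0 and 50.3 FPKM in CLE and LU. The hour at which livers were taken was not given in the sources used here. Over the 12 livers r between the clock score and the member score was -0.25 (rho 0.13), and the part of the time of day in the members' levels was not tested beyond the covariate.

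Marker levels were summed per GENCODE M21 gene. Of the 8 hepatocyte markers all were found. Their summed level was between 35192 and 40152 FPKM in ND and between 37649 and 64506 FPKM in the other diets. In the separate sums by gene name, albumin stood at 0 in 11 of 12 livers, and the cause was not tested. All 8 macrophage markers were detected, with sums from 106 to 119 FPKM in ND, 156 to 232 in HFD, 153 to 196 in CLE and 117 to 200.3 in LU. The r of the macrophage sum with the member score was 0.54 (rho 0.48), and its part in the results was not tested. For cells rich in ER, the 6 markers of B and plasma cells summed to between 4.42 and 13.0 FPKM with r = -0.07, and 6 of the 8 markers of pancreatic acinar cells were under 0.1 FPKM in every liver. The 4 adipocyte markers summed to between 1.02 and 1.34 FPKM in LU and to at most 0.384 FPKM elsewhere. The r with the member score was 0.44 for the hepatocyte sum (rho 0.40), 0.41 for the acinar sum (0.20) and 0.34 for the adipocyte sum (0.45). Sums of stellate cell, endothelial and bile duct markers had r of 0.22, 0.34 and -0.04, and the part of none of these was tested. Median-of-ratios factors of the libraries were between 0.879 and 1.07 and had r = 0.19 with the score (rho -0.06). The FPKM summed over all gene names differed more. It was between 1.70e+06 and 3.03e+06 in ND, 2.69e+06 and 3.19e+06 in HFD, 2.52e+06 and 5.58e+06 in CLE and 2.36e+06 and 3.63e+06 in LU. Its part in the results was not tested.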

How the data were processed

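Liver RNA of 12 mice was sequenced (3 per diet). According to the study's methods and the submitters' processing notes, the authors used CASAVA 1.8.2, Bowtie2 2.2.3, TopHat2 2.0.12 and Cufflinks 2.2.1, and deposited FPKM values per transcript for known (78786) and assembled (73424) transcripts. Whether these FPKM values include a scaling between libraries is not stated, and the depth is unknown.

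FPKM were summed per gene name, or for Manf per GENCODE M21 gene (87.6% of known transcripts had the same coordinates there). The 11566 genes whose mean reached 0.5 FPKM were tested on log2(FPKM + 1) with limma 3.58.1 (R 4.3.3, variance trend, all 12 mice, 1 coefficient per diet), adjusted by the Benjamini-Hochberg method at 0.05. This scale understates the change of low genes. All adjusted p-values in the text are from limma and were adjusted over all genes tested, and ± after a fold change is its SE. The script was tested on simulated data. Permutation tests and sums used Python 3.11.15, pandas 2.3.3 and scipy 1.17.1. With 3 mice against 3, an exact permutation test cannot pass 0.05, so none was made for single pairs of diets.

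The members and lists were chosen with earlier results of these data known. Named were the members, up to 5 called genes per list in HFD against ND, CLE against HFD or LU against HFD (the 2 with the smallest p where fewer than 2 were called), and the 5 genes most like the members' mean. Alternatives were a pseudocount of 0.1, no filter or a mean of 5 FPKM, other scalings, variance models and gene values, GC and length corrections, a clock-gene covariate and each mouse left out. The likeness to Hspa5 and the spread under other scalings, the settings for named list genes and the list calls under 2 other scalings were added after seeing the data.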

Additional observations from a re-analysis of the deposited data

How the results depend on the processing

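Of 1500 log2 fold changes of the members under alternative settings, 1380 kept their direction and their side of the threshold, 118 changed sign without passing it (smallest adjusted p 0.406, limma) and 2 passed it newly. The members that changed sign had differences of at most 0.51 on the log2 scale, and the cause was not tested. No member was called in any comparison under another pseudocount, filter, scaling, variance model, gene value, correction or covariate. With each mouse left out, the number of members called was between 0 and 1 in CLE against ND (1 without CLE 4, Calr) and between 0 and 1 in LU against ND (1 without CLE 11, Sdf2l1), and 0 elsewhere.

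The values that changed sign are given by setting, with diets joined by a stroke. With median-of-ratios scaling, the log2 fold change of HFD/ND was -0.11 for Hsp90b1, that of CLE/LU was -0.0040 for Hyou1 and -0.0054 for Calr, that of CLE/ND was -0.17 for Hspa5 and -0.0050 for Pdia4, that of LU/ND was -0.0037 for Hspa5, -0.018 for Hsp90b1 and -0.098 for Dnajb9. With quantile normalization, the log2 fold change of HFD/ND was -0.025 for Hsp90b1, that of CLE/ND was -0.063 for Hspa5, that of LU/ND was -0.049 for Dnajb9. After correction for GC content, the log2 fold change of HFD/ND was -0.066 for Hsp90b1, that of CLE/HFD was 0.080 for Hsp90b1, that of LU/HFD was 0.019 for Hspa5, that of CLE/LU was -0.014 for Hyou1, that of CLE/ND was 0.014 for Hsp90b1, 0.015 for Dnajb9 and -0.0051 for Xbp1. After correction for transcript length, the log2 fold change of HFD/ND was -0.075 for Hsp90b1, that of CLE/HFD was 0.013 for Hyou1, that of LU/HFD was 0.016 for Hyou1, that of CLE/LU was -0.0030 for Hyou1, that of CLE/ND was -0.086 for Hspa5, that of LU/ND was -0.078 for Dnajb9. With the transcript of the highest mean, the log2 fold change of CLE/HFD was 0.26 for Hyou1, 0.025 for Pdia6 and -0.37 for Sec31a, that of LU/HFD was 0.12 for Hspa5, 0.23 for Hyou1 and 0.27 for Pdia6, that of CLE/LU was -0.12 for Calr, that of CLE/ND was 0.038 for Hsp90b1. With known transcripts only, the log2 fold change of CLE/HFD was 0.11 for Hyou1, that of LU/HFD was 0.088 for Hyou1 and 0.052 for Pdia6, that of CLE/LU was -0.060 for Calr. With annotation sums, the log2 fold change of CLE/ND was 0.018 for Hsp90b1. With the clock score added to the fit, the log2 fold change of CLE/HFD was 0.027 for Hyou1, that of LU/HFD was 0.030 for Hspa5 and 0.023 for Hyou1, that of CLE/ND was 0.17 for Hsp90b1, 0.33 for Dnajb9 and -0.47 for Xbp1, that of LU/ND was -0.27 for Xbp1. With the mouse number as a replicate block, the log2 fold change of CLE/LU was -0.0030 for Hyou1, that of CLE/ND was -0.23 for Hspa5, that of LU/ND was -0.069 for Hspa5 and -0.11 for Dnajb9.

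For members whose sign turned when a mouse was left out, the lowest and highest log2 fold changes over the 12 mice left out are given. In HFD against ND they ran from -0.056 to 0.49 for Hspa5, -0.078 to 0.18 for Hsp90b1 and -0.35 to 0.20 for Xbp1. In CLE against HFD they ran from -0.67 to 0.21 for Hspa5, -0.28 to 0.13 for Hsp90b1, -0.47 to 0.34 for Hyou1, -0.47 to 0.16 for Pdia4, -0.096 to 0.40 for Calr, -0.38 to 0.78 for Sdf2l1 and -0.58 to 0.29 for Manf. In LU against HFD they ran from -0.40 to 0.086 for Hspa5, -0.13 to 0.20 for Hsp90b1, -0.35 to 0.11 for Hyou1, -0.17 to 0.15 for Pdia4, -0.34 to 0.060 for Pdia6, -0.11 to 0.65 for Sdf2l1 and -0.29 to 0.37 for Manf. In CLE against LU they ran from -0.56 to 0.31 for Hspa5, -0.35 to 0.067 for Hsp90b1, -0.39 to 0.41 for Hyou1, -0.47 to 0.15 for Pdia4, -0.55 to 0.063 for Pdia6, -0.23 to 0.26 for Calr, -0.36 to 0.21 for Dnajb9, -0.74 to 0.43 for Sdf2l1 and -0.68 to 0.21 for Manf. In CLE against ND they ran from -0.44 to 0.44 for Hspa5, -0.24 to 0.18 for Hsp90b1, -0.16 to 0.64 for Hyou1, -0.11 to 0.51 for Pdia4, -0.052 to 0.56 for Pdia6, -0.33 to 0.24 for Dnajb9 and -0.040 to 0.51 for Xbp1. In LU against ND they ran from -0.17 to 0.39 for Hspa5, -0.085 to 0.25 for Hsp90b1, -0.054 to 0.45 for Hyou1 and -0.12 to 0.19 for Dnajb9.

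The block could use the ND, CLE and LU mice whose number is shared, and it called 0 members in CLE against ND, LU against ND and CLE against LU. Deviations of same-numbered mice from their group means correlated between -0.26 and 0.18. What a shared number stands for was not given in the sources used here, and these few pairs cannot settle it. No paired analysis was possible for HFD because its mouse numbers occur in no other diet. Manf was not run under the transcript, GC and length alternatives. Depth is unknown, since the table holds no counts, and 3 mice a diet limit the precision.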
